A study of Rattus norvegicus with 6 samples.

Results

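The ubiquitin ligases described here are 7 HECT ligases of the Nedd4 type (Nedd4, Nedd4l, Itch, Wwp1, Wwp2, Smurf1 and Smurf2), the giant HECT ligase Huwe1, and the RING ligases Rnf40 and Mylip. They were taken by gene symbol from the array annotation, counting only probe sets with a single symbol; a gene with several was represented by its brightest, on average over the 6 arrays. Of the 10 genes 9 were measured, out of 14168 genes in all, and Huwe1 was not analysed here because no probe set carried its symbol alone. RNA from the inner medulla of the kidney, the zone where the collecting ducts end, came from male Sprague-Dawley rats and was hybridised to 6 whole-transcript arrays, 2 for each of 3 groups. Withdrawal rats had the minipump removed under light enflurane anaesthesia after 5 d of dDAVP and were kept for another 3 h. The dDAVP rats were infused under the skin with desmopressin (dDAVP), which stimulates the vasopressin V2 receptor, at 40 ng/h for 5 d. Vehicle rats received saline at 1 µl/h by the same route for 5 d. All 3 groups carried a minipump and had a fixed ration of food with free access to water. The anaesthesia and pump removal are described for the withdrawal group only, so effects of this procedure and of ending the infusion cannot be told apart.

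Ubiquitin ligases attach ubiquitin to chosen proteins and thereby mark them for degradation, endocytosis or a change of activity. HECT ligases carry the ubiquitin on a cysteine of their own before passing it on, whereas RING ligases bring the E2 enzyme and the substrate together. Nedd4-type ligases pair a lipid-binding C2 domain and WW domains, which grip short proline-rich PY motifs of substrates and adaptors, with the HECT domain. In the collecting duct Nedd4l is known for removing the epithelial sodium channel from the apical membrane, and vasopressin acts there through cAMP and protein kinase A.

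None of the 9 ligases passed in any comparison at a Benjamini-Hochberg adjusted p under 0.05 over all genes (limma), nor did any other gene. What the data show are small differences: as deposited, the largest estimated fold among the ligases was 1.19 when dDAVP was set against vehicle, 1.26 when withdrawal was set against dDAVP, and 1.20 when it was set against vehicle. As deposited, no 95% interval of a ligase on these probe sets reached beyond 1.47-fold, 1.62-fold and 1.47-fold in these comparisons. The other probe set of Smurf2 is outside these bounds, with -0.42 ± 0.18 log2 (SE) for withdrawal against dDAVP. With array medians subtracted Mylip was 1.39-fold lower in withdrawal than in dDAVP, the largest estimate on the probe sets used under the 3 scalings. That scaling takes 1 value off every gene of an array, dim or bright. Among the deposited values those with the smallest unadjusted p belonged to Rnf40 and Itch. Rnf40 was lower in dDAVP than in both other groups, and Itch lower in withdrawal than in both other groups. The number of arrays limits the precision of every value, and a p that misses the threshold does not show that levels were equal. Whether the 2 arrays of a group stand for separate animals is not stated, so the p-values reflect array-to-array spread, which may be technical.

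Several features of the arrays touch these values. The dDAVP arrays had the lowest median intensities (156.1 and 165.1, against 181.8 and 181.1 in withdrawal and 182.1 and 174.6 in vehicle), and the median gene differed by -0.11 log2 between dDAVP and vehicle, by 0.14 between withdrawal and dDAVP, and by 0.03 between withdrawal and vehicle. A cyclic loess normalization brought these medians to -0.01, 0.00 and 0.00, and values after it are given beside many of the deposited ones. Vehicle replicate 1 and dDAVP replicate 2 stood apart from the other arrays in markers of dividing cells, whose mean log2 level over 5 measured markers was 7.25 in dDAVP replicate 2 and 7.51 in vehicle replicate 1, against 8.39 to 9.08 in the other 4 arrays. Markers of the inner medullary collecting duct, 6 of 6 measured, were at mean log2 levels of 10.98 to 11.19 in all 6 arrays, and those of the proximal tubule, which is absent from this zone, at 6.96 to 7.31. Markers of the thick ascending limb, which belongs to the outer medulla and cortex, were nevertheless at 9.96 to 10.65 (5 of 5 measured). Among them Umod was at 11.18 in dDAVP replicate 2 and lower in the other 5 arrays, down to 9.80 in withdrawal replicate 2. Markers of intercalated cells, 4 of 5 measured, ran from 7.83 in vehicle replicate 1 to 8.88 in withdrawal replicate 1. The part of these cell types in the ligase values was not tested. In bulk tissue fewer cells of a type and less RNA per cell cannot be told apart.

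**Figure D1:**
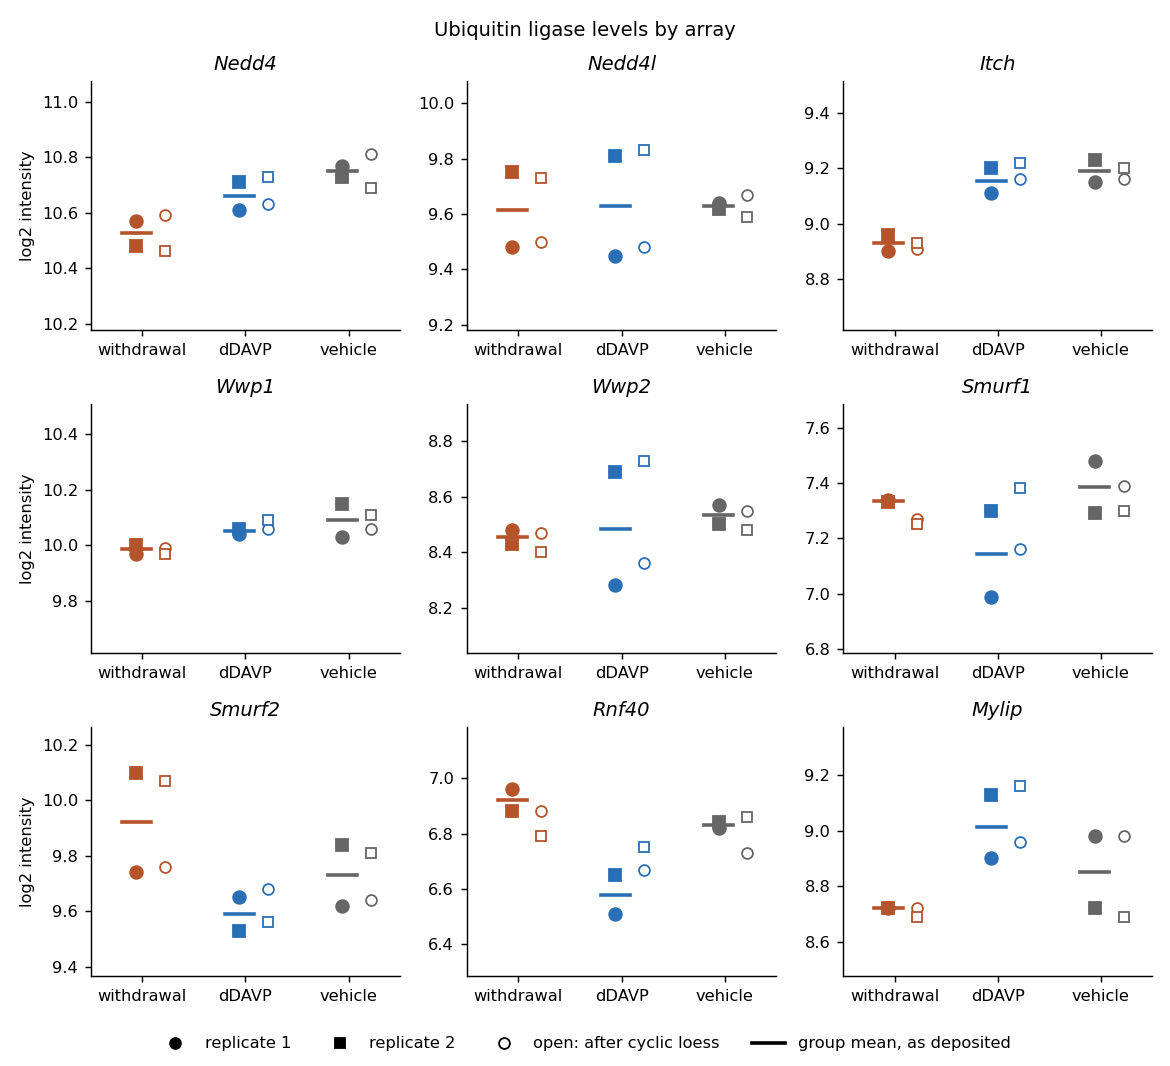
Log2 intensity of each of the 9 measured ligases in the withdrawal, dDAVP and vehicle arrays, with filled symbols for deposited values, open symbols for values after cyclic loess, and bars for the mean of the 2 deposited values of a group. Every panel spans the same range of log2 units. Both withdrawal arrays of Itch lie below the other 4 arrays, and the low dDAVP arrays of Rnf40 move up after loess.

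Itch, a Nedd4-type ligase that restrains T cells and acts on Junb and Notch, had log2 intensities of 8.90 and 8.96 in withdrawal, 9.11 and 9.20 in dDAVP, and 9.15 and 9.23 in vehicle. Both withdrawal arrays lay below all 4 others, and the dDAVP and vehicle arrays overlapped. The level was 8.93 ± 0.04 in withdrawal and 9.16 ± 0.06 in dDAVP (SD, n = 2 each), a log2 difference of -0.22 ± 0.09 (SE), or 1.17-fold lower. Against vehicle, at 9.19 ± 0.06, the withdrawal difference was -0.26 ± 0.09, or 1.20-fold lower. The unadjusted limma p was 0.0511 against dDAVP (adjusted 0.263) and 0.03 against vehicle (adjusted 0.995). After loess the differences were -0.27 (unadjusted p = 0.0097, adjusted 0.727) and -0.26 (0.0122, adjusted 0.997). With array medians subtracted the difference from dDAVP was -0.40 (unadjusted p = 0.00447). Without both arrays that stand apart the differences were -0.18 and -0.30. For dDAVP against vehicle Itch differed by -0.04, with a 95% interval from -0.26 to 0.19, and by 0.01 after loess.

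Nedd4, the founding member of the family, which acts on growth factor receptors and shares adaptors with Nedd4l, had log2 intensities of 10.57 and 10.48 in withdrawal, 10.61 and 10.71 in dDAVP, and 10.77 and 10.73 in vehicle. The 3 groups did not overlap, with withdrawal lowest. Both vehicle arrays lay above the other 4, as they did in 4.71% of genes, although after loess vehicle replicate 2 (10.69) lay below dDAVP replicate 2 (10.73). The withdrawal mean was 10.53 ± 0.06, the dDAVP mean 10.66 ± 0.07 and the vehicle mean 10.75 ± 0.03. The withdrawal arrays differed from vehicle by -0.23 ± 0.09 (limma unadjusted p = 0.0501, adjusted 0.995) and from dDAVP by -0.13 ± 0.09 (0.199, adjusted 0.405). The dDAVP arrays differed from vehicle by -0.09, within an interval from -0.32 to 0.13, and by 0.06 when array medians were subtracted. That scaling gave -0.31 for withdrawal against dDAVP (unadjusted p = 0.00818, adjusted 0.343), with an interval from -0.50 to -0.12, and -0.25 for withdrawal against vehicle (unadjusted p = 0.0196, adjusted 0.999). Whether Nedd4 differed between neighbouring groups thus depended on the scaling, and none of these values passed after adjustment.

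Nedd4l, the ligase of the epithelial sodium channel, had nearly equal group means, 9.62 ± 0.19 in withdrawal, 9.63 ± 0.25 in dDAVP and 9.63 ± 0.01 in vehicle. Its arrays, however, were spread within 2 of the groups, with log2 intensities of 9.48 and 9.75 in withdrawal and 9.45 and 9.81 in dDAVP, against 9.64 and 9.62 in vehicle. The arrays of withdrawal and dDAVP thus lay on both sides of the vehicle pair. All 3 differences were within 0.02 of 0, and the 95% interval of dDAVP against vehicle ran from -0.38 to 0.36. The estimate turns on single arrays: without dDAVP replicate 1 it was 0.17, and without dDAVP replicate 2, one of the arrays that stand apart, it was -0.19.

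Wwp1 and Wwp2, close relatives that act on transcription factors among other substrates, differed by at most 0.10 log2 in any comparison as deposited. Wwp1 had intensities on the linear scale of 1005 and 1022 in withdrawal, 1051 and 1068 in dDAVP, and 1046 and 1136 in vehicle. Both withdrawal arrays were again the lowest, with log2 differences of -0.06 ± 0.09 from dDAVP and -0.10 ± 0.09 from vehicle, neither of which passed (limma adjusted p = 0.676 and 0.995). With array medians subtracted the difference from dDAVP was -0.24 (unadjusted p = 0.0439). Wwp2 was at log2 intensities of 8.48 and 8.43 in withdrawal, 8.28 and 8.69 in dDAVP, and 8.57 and 8.50 in vehicle. The dDAVP pair held both the lowest and the highest value of the 6 arrays. Its difference of -0.05 from vehicle became 0.16 without dDAVP replicate 1 and -0.26 without dDAVP replicate 2. For withdrawal against dDAVP it was -0.03 as deposited and -0.11 after loess.

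Smurf1 and Smurf2 restrain TGF-beta and BMP signalling through Smad proteins and their receptors. Smurf1 had log2 intensities of 7.34 and 7.33 in withdrawal, 6.99 and 7.30 in dDAVP, and 7.48 and 7.29 in vehicle. The low value was dDAVP replicate 1, while dDAVP replicate 2 lay within the vehicle range. Smurf1 differed by -0.24 ± 0.13 for dDAVP against vehicle (limma adjusted p = 0.549) and by 0.19 ± 0.13 for withdrawal against dDAVP (adjusted p = 0.41). After loess these differences were -0.08 and -0.01. When genes were put into 4 bins of 3542 by mean brightness, Smurf1 fell in the second dimmest bin, where the median gene differed by -0.17 and 0.20 in the same comparisons, and the part of this shift in its values was not tested.

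Smurf2 was the ligase with the widest span over the 6 arrays, 0.57 log2. Its brighter probe set had log2 intensities of 9.74 and 10.10 in withdrawal, 9.65 and 9.53 in dDAVP, and 9.62 and 9.84 in vehicle. Both withdrawal arrays lay above both dDAVP arrays (difference 0.33 ± 0.15, limma unadjusted p = 0.0709, adjusted 0.276), and withdrawal replicate 2 was the highest of all 6. The other probe set of Smurf2, annotated with the same transcript, went the opposite way. It had log2 intensities of 9.14 and 9.02 in withdrawal, 9.73 and 9.27 in dDAVP, and 9.03 and 9.37 in vehicle. The withdrawal arrays lay below the dDAVP arrays on this probe set, with a difference of -0.42 ± 0.18 (unadjusted p = 0.0597, adjusted 0.232 over all probe sets). For dDAVP against vehicle the brighter probe set gave -0.14 ± 0.15 and the other 0.30 ± 0.18. With both probe sets averaged the differences were -0.05 for withdrawal against dDAVP and 0.08 for dDAVP against vehicle, so these arrays give no direction for Smurf2.

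**Figure D2:**
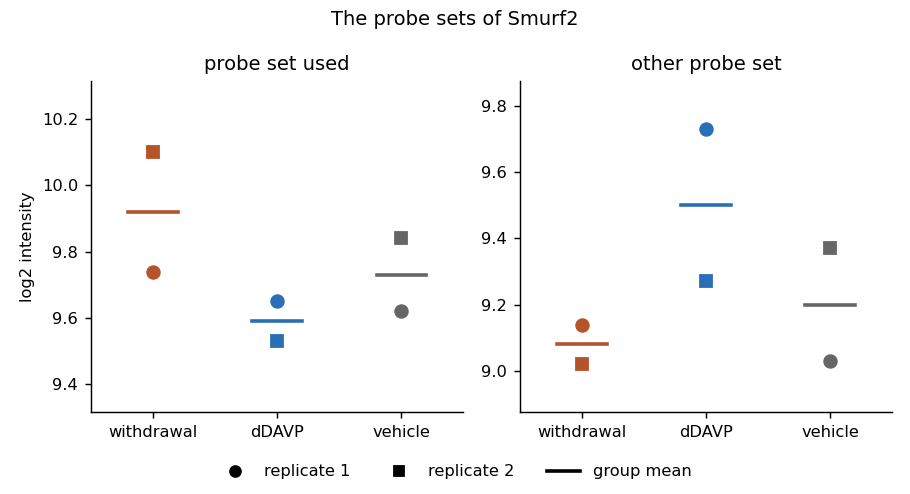
Log2 intensity of the 2 probe sets of Smurf2 in the withdrawal, dDAVP and vehicle arrays; symbols are single arrays and bars are means of 2. On the probe set used the withdrawal arrays (9.74 and 10.10) lie above the dDAVP arrays (9.65 and 9.53), and on the other probe set (9.14 and 9.02) they lie below them (9.73 and 9.27).

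The genes whose pattern over the 6 arrays was most like that of Smurf2 (brighter probe set) were Parp1, which senses DNA breaks, and Polr1d, a subunit of RNA polymerases I and III. Their log2 values, with each gene's mean taken off, differed from those of Smurf2 by a root mean square of 0.023 for Parp1 and 0.024 for Polr1d. No other ligase spanned the 0.5 log2 set for this search.

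Rnf40, a RING ligase that works with Rnf20 to put ubiquitin on histone H2B in transcribed chromatin, was the only ligase with an unadjusted p under 0.05 in 2 comparisons that both involve the dDAVP arrays. Its log2 intensities were 6.96 and 6.88 in withdrawal, 6.51 and 6.65 in dDAVP, and 6.82 and 6.84 in vehicle. Both dDAVP arrays lay below the other 4, and both withdrawal arrays above the other 4. The level was 6.58 ± 0.10 in dDAVP and 6.83 ± 0.01 in vehicle (SD, n = 2 each), a log2 difference of -0.25 ± 0.10 (SE), or 1.19-fold lower. In withdrawal, at 6.92 ± 0.06, it lay 0.34 ± 0.10 above dDAVP, or 1.26-fold. The unadjusted limma p was 0.0418 for dDAVP against vehicle (adjusted 0.549) and 0.0126 for withdrawal against dDAVP (adjusted 0.26). These comparisons share the dDAVP arrays and are not independent of each other.

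Rnf40 was also the only ligase in the dimmest bin, where the median gene had the same signs, -0.16 for dDAVP against vehicle and 0.21 for withdrawal against dDAVP. An order with both dDAVP arrays below the other 4 was found in 33.6% of all genes, and one with both withdrawal arrays above the other 4 in 14.7%. After loess Rnf40 had neither order, which 8.83% and 7.54% of genes had. After loess the Rnf40 differences were -0.08 (unadjusted p = 0.38) and 0.12 (unadjusted p = 0.208), and dDAVP overlapped vehicle. With array medians subtracted they were -0.10 and 0.16. Without both arrays that stand apart, which leaves 1 array each of dDAVP and vehicle, they were -0.33 and 0.41 as deposited. How far Rnf40 lay above background is unknown, because detection calls were not used here.

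**Figure D3:**
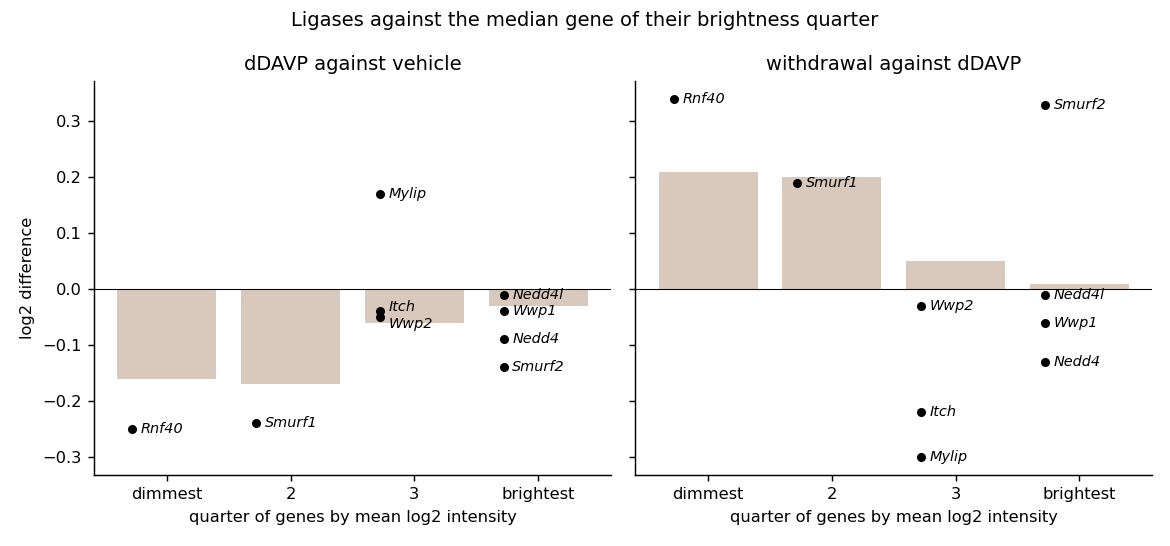
Log2 difference of each ligase (points) for dDAVP against vehicle and withdrawal against dDAVP, placed in its bin of genes by mean log2 intensity (4 bins, dimmest to brightest); bars are the median difference of the 3542 genes of the bin. Rnf40 and Smurf1 sit in the dimmer bins, whose medians have the same sign as their differences.

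Mylip, also called Idol, is a RING ligase that sends the LDL receptor to degradation and is transcribed under the oxysterol receptors of the LXR type. Its log2 intensities were 8.72 and 8.72 in withdrawal, 8.90 and 9.13 in dDAVP, and 8.98 and 8.72 in vehicle. Both dDAVP arrays lay above both withdrawal arrays and the vehicle arrays spanned the gap between them. Withdrawal differed from dDAVP by -0.30 ± 0.13, or 1.23-fold lower (limma unadjusted p = 0.0583, adjusted 0.267), and by -0.36 after loess (unadjusted p = 0.0326, adjusted 0.727). With array medians subtracted it was -0.48 (unadjusted p = 0.00443, adjusted 0.343). Without dDAVP replicate 2 this difference was -0.18 as deposited, and likewise without both arrays that stand apart. For dDAVP against vehicle Mylip was the only ligase with a difference above 0 as deposited, 0.17 ± 0.13 with an interval from -0.14 to 0.48. It was 0.23 after loess and 0.32 with array medians subtracted, but 0.04 without vehicle replicate 2 and 0.06 without dDAVP replicate 2.

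The promoters of Rnf40 and Mylip are shown because the differences of these RING ligases had opposite signs in each comparison, and because vasopressin acts through cAMP, whose response element holds the letters TGACG. Windows of 300 bases around the annotated start (50 of them after it) were matched for 8 of the 10 genes in RefSeq (build GRCr8). Capitals mark TGACG in the first, at chr1:191632856-191633155 on the plus strand, and CCAAT read on the other strand (ATTGG) in the second, at chr17:19514422-19514721 on the minus strand.
Rnf40: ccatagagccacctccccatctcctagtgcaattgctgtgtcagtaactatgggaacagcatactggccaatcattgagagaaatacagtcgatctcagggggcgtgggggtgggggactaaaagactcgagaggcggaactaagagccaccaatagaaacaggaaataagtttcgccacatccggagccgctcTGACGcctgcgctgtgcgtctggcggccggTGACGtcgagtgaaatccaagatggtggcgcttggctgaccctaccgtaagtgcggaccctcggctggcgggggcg
Mylip: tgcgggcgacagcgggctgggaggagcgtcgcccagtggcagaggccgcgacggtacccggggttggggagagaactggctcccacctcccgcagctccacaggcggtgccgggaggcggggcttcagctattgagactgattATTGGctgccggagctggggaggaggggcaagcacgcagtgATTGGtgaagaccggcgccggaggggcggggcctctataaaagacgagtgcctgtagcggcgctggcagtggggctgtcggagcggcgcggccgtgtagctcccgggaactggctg

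Both strands were searched for TGACG, for TGACGTCA, which contains it, for CCAAT and for TATAAA. The Rnf40 window held TGACG at positions -56 and -26 from the start, where 21.2% of 33469 promoters of this length hold it at least once. The full element TGACGTCA, found in 1.83% of promoters, was in none of the 8 windows. The Mylip window held CCAAT on the other strand at -107 and -66 (a motif of 37.5% of promoters) and TATAAA at -31 (14.2% of promoters). The Rnf40 window also held CCAAT, on its own strand at -183 and -100, where it is not in capitals, and the Nedd4l window held it at -127. Huwe1 was the other gene of the 8 with TGACG. These matches describe the letters only and say nothing of a factor bound there.

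**Figure D4:**
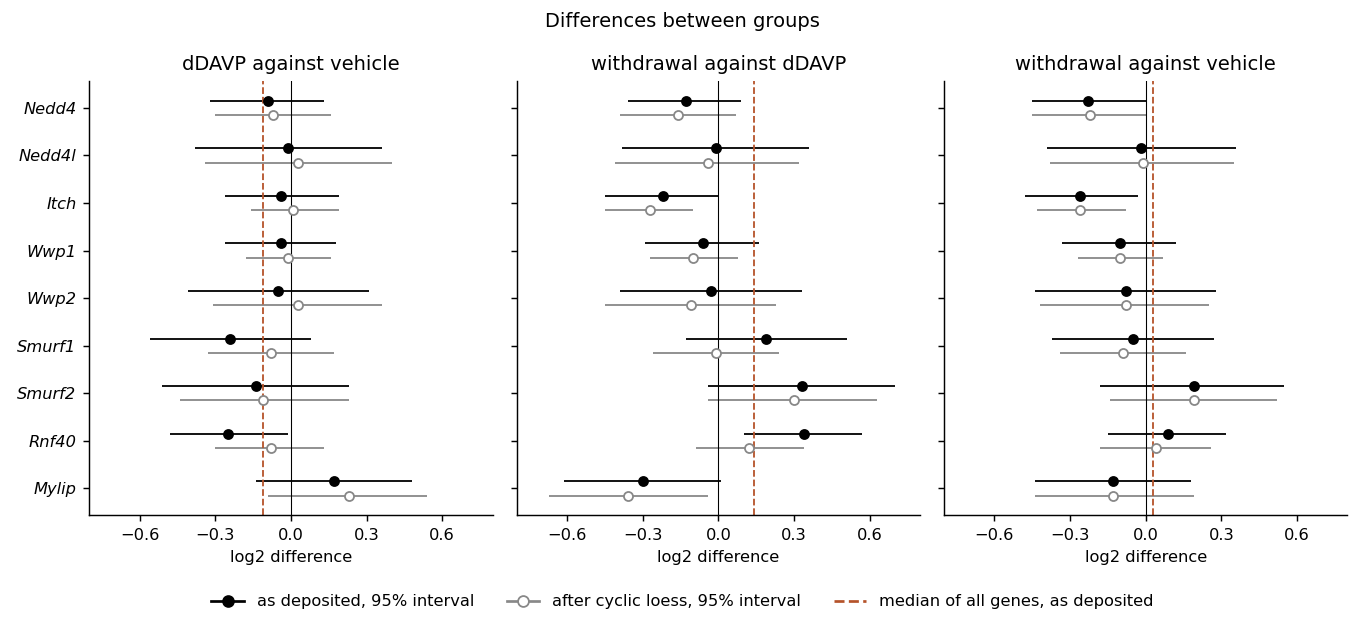
Log2 difference of each ligase in the 3 comparisons, as deposited (filled) and after cyclic loess (open), with 95% intervals from the limma fit; the dashed line is the median of all genes as deposited. The intervals that leave out 0 are those of Rnf40 as deposited in both comparisons with dDAVP, of Itch and Mylip after loess in withdrawal against dDAVP, and of Itch in withdrawal against vehicle.

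For dDAVP against vehicle, which asks what 5 d of V2 receptor stimulation does, 1 of the 9 ligases (Rnf40, lower) had an unadjusted p under 0.05, against 7.43% of all genes in either direction and 6.85% of all genes lower. After loess there were 0, against 3.29% of genes. The 9 differences ran from -0.25 to 0.17 with a median of -0.05, where the median over all genes was -0.11. Of the 9, 1 lay above 0 as deposited and 4 after loess, where 22.1% and 47.6% of genes did. As deposited the median gene differed by -0.16, -0.17, -0.06 and -0.03 from the dimmest to the brightest bin. The dDAVP and vehicle arrays did not overlap in 2 ligases, Nedd4 and Rnf40, as deposited and in 0 after loess, against 45.4% and 30.2% of genes.

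For withdrawal against dDAVP, which asks what differed 3 h after the pump was removed, 1 of the 9 (Rnf40, above 0) had an unadjusted p under 0.05, against 19% of all genes and 17.3% in that direction. After loess there were 2, Itch and Mylip, both lower, against 6.65% of genes and 3.73% in that direction. The median difference of the 9 was -0.03 as deposited and -0.10 after loess, where the median over all genes was 0.14 and 0.00. Of the 9, 3 lay above 0 as deposited and 2 after loess, against 74.9% and 51.3% of genes. From the dimmest to the brightest bin the median gene differed by 0.21, 0.20, 0.05 and 0.01 as deposited. All ligases but Rnf40 and Smurf1 fell in the 2 brighter bins. The arrays of the groups did not overlap in 7 of the 9 as deposited, against 57.6% of genes, and in 6 after loess, against 39.1%.

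For withdrawal against vehicle, which asks whether the level 3 h after the infusion was that of rats never treated, 1 of the 9 (Itch, lower) had an unadjusted p under 0.05 as deposited and after loess, against 1.79% and 2.15% of genes, with 1.14% and 1.5% lower. The median difference was -0.08, where the median over all genes was 0.03. As deposited and after loess, 2 of the 9 lay above 0, against 59.5% and 50.2% of genes. Both withdrawal arrays lay below all 4 others in Nedd4, Itch, Wwp1 and Mylip as deposited, 4 of 9 where 3.9% of genes had that order, and in Nedd4, Itch and Wwp1 after loess, 3 of 9 where 7.57% did. For Mylip this rested on intensities of 421.9 and 421.0 in withdrawal against 422.1 in vehicle replicate 2. The withdrawal and vehicle arrays did not overlap in 6 of the 9 as deposited and in 5 after loess, against 30.7% and 32.1% of genes. In the moderated F-test over the 3 groups only Rnf40 had an unadjusted p under 0.05 (0.0303, adjusted 0.489) as deposited, against 8.64% of genes, and only Itch after loess (0.0164), against 3.58%.

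The relatives of these ligases showed no passing change either. Of the Nedd4-type ligases Hecw1 and Hecw2, known mainly from neurons, Hecw2 was at log2 levels of 6.87 ± 0.19 in dDAVP and 7.21 ± 0.01 in vehicle, a difference of -0.35 ± 0.12 (limma adjusted p = 0.549) and of -0.18 after loess. In withdrawal against dDAVP it differed by 0.29 ± 0.12, and by 0.07 after loess. The smallest p among 9 measured HECT ligases of other types (17 listed) belonged to Herc2 (-0.20, after loess -0.11) and Hectd2 (-0.17, after loess 0.00) in dDAVP against vehicle, to Arel1 (-0.33, after loess -0.41) and Hace1 (0.19, after loess 0.05) in withdrawal against dDAVP, and to Arel1 (-0.35) and Herc3 (-0.18) in withdrawal against vehicle. The low Arel1 value was withdrawal replicate 2 (8.09, against 8.54 in withdrawal replicate 1, 8.64 and 8.65 in dDAVP and 8.64 and 8.70 in vehicle).

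Adaptors, many of them with PY motifs, bring Nedd4-type ligases to their substrates, and 11 of 11 listed were measured. At an unadjusted p under 0.05, 1 lay higher in dDAVP than in vehicle, against 0.572% of all genes (7.43% in either direction). In withdrawal against dDAVP 2 lay lower, against 1.64% of all genes (19% in either direction). None passed after adjustment. The arrestin-like adaptor Arrdc2 had log2 intensities of 8.60 and 8.36 in withdrawal, 8.80 and 8.87 in dDAVP, and 8.55 and 8.55 in vehicle. It differed by 0.28 ± 0.11 for dDAVP against vehicle (limma unadjusted p = 0.0422) and by -0.35 ± 0.11 for withdrawal against dDAVP (0.0178), and loess made these differences 0.35 and -0.43. Ndfip1, a membrane adaptor that activates Nedd4-type ligases, Itch among them, was at 11.61 and 11.47 in withdrawal, 11.82 and 11.83 in dDAVP, and 11.72 and 11.75 in vehicle. Both withdrawal arrays were the lowest of the 6, as they were for Itch, with a difference of -0.29 ± 0.09 from dDAVP (unadjusted p = 0.0202, adjusted 0.26) and of -0.20 ± 0.09 from vehicle (0.0791, adjusted 0.995). Its relative Ndfip2 differed by 0.04 and 0.02 in these comparisons, and Arrdc1 by 0.21 ± 0.10 for dDAVP against vehicle. Txnip, an arrestin-like protein that Itch degrades, differed by -0.51 ± 0.27 for withdrawal against vehicle, with an adjusted p of 0.995.

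Of 14 measured kinases and 14-3-3 proteins that act on Nedd4l (15 listed), 1 had an unadjusted p under 0.05, lower in withdrawal than in dDAVP, where 1.64% of all genes were called lower and 19% in either direction. Prkacb, a catalytic subunit of protein kinase A, had log2 intensities of 9.17 and 8.89 in withdrawal, 9.58 and 9.44 in dDAVP, and 9.32 and 9.30 in vehicle. The groups did not overlap, with dDAVP highest and withdrawal lowest. It lay at -0.48 ± 0.12 in withdrawal against dDAVP (limma unadjusted p = 0.00755, adjusted 0.26), 1.39-fold lower, and at 0.20 ± 0.12 in dDAVP against vehicle (0.148, adjusted 0.554). Sgk1, the kinase that inhibits Nedd4l by phosphorylation, varied within groups (11.63 and 11.62 in withdrawal, 11.92 and 11.47 in dDAVP, 11.37 and 11.82 in vehicle) and differed by 0.10 ± 0.20 for dDAVP against vehicle. Sgk2 differed by -0.17 in the same comparison (-0.01 after loess), Ywhab by 0.20 in withdrawal against dDAVP, and Akt1 by 0.23 in withdrawal against vehicle. The 7 measured E2 enzymes that charge HECT and RING ligases lay between -0.14 and 0.18 in the comparisons that involve dDAVP. Ube2d1 had the smallest p of them in both, at -0.09 in dDAVP against vehicle and 0.18 in withdrawal against dDAVP. Next were Ube2e3 (0.13) and Ube2d3 (-0.10). In withdrawal against vehicle Ube2l3 (0.10) had the smallest p, before Ube2d1 (0.08).

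Of 20 measured substrates (23 listed), none had an unadjusted p under 0.05 in dDAVP against vehicle, and 3 had one in withdrawal against dDAVP, all above 0, where 17.3% of all genes did. After loess 1 was above 0 and 1 below. Cdc6, a replication factor degraded through Huwe1, was at 8.75 and 8.62 in withdrawal, 8.0 and 7.88 in dDAVP, and 8.06 and 8.59 in vehicle. It differed by 0.75 ± 0.18 for withdrawal against dDAVP (limma unadjusted p = 0.0054, adjusted 0.26), by -0.39 ± 0.18 for dDAVP against vehicle and by 0.36 ± 0.18 for withdrawal against vehicle. Cdc6 is itself a gene of dividing cells, whose 5 measured markers had a median difference of 1.35 in withdrawal against dDAVP, and the part of that difference in the Cdc6 value was not tested. Notch1, a receptor acted on by Itch, differed by 0.31 ± 0.12 in withdrawal against dDAVP and by -0.26 ± 0.12 in dDAVP against vehicle (0.12 and -0.11 after loess). The third was the sodium chloride cotransporter Slc12a3, a substrate of Nedd4l in the distal tubule (0.24 ± 0.10). It was on average dimmer than Rnf40, at 6.73 and 6.76 in withdrawal and 6.43 and 6.59 in dDAVP. In the dimmest bin the median gene differed by 0.21 in this comparison, and the part of that shift in the Slc12a3 value was not tested. The epithelial sodium channel subunits Scnn1a, Scnn1b and Scnn1g differed by -0.21, -0.17 and -0.20 in dDAVP against vehicle. In withdrawal against dDAVP they differed by 0.12, 0.25 and 0.31. All these intervals include 0. The median over all genes had the same signs, -0.11 and 0.14, and the part of that shift in the subunit values was not tested. Smad1, a target of the Smurf ligases, differed by -0.31 ± 0.15 in withdrawal against vehicle.

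Rnf20, the partner of Rnf40 in the same ligase complex, had log2 intensities of 8.65 and 8.73 in withdrawal, 8.79 and 8.42 in dDAVP, and 8.46 and 8.80 in vehicle. Its groups overlapped and it differed by -0.02 ± 0.17 for dDAVP against vehicle, with an interval from -0.43 to 0.38, which includes the Rnf40 value of -0.25. None of the 10 measured partners of Rnf40 (13 listed) had an unadjusted p under 0.05 in any comparison. Those with the smallest p were the PAF1 complex subunits Cdc73 (0.21 in dDAVP against vehicle, -0.24 in withdrawal against dDAVP), Leo1 (0.39 in withdrawal against dDAVP, 0.20 in withdrawal against vehicle) and Ctr9 (-0.14 in withdrawal against vehicle), and Usp44, which removes ubiquitin from histone H2B (-0.15 in dDAVP against vehicle, 0.02 after loess).

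In the LXR pathway around Mylip 7 of 11 listed genes were measured. Nr1h2 alone had an unadjusted p under 0.05 as deposited, in both comparisons with dDAVP. Of all genes 0.572% were called higher in dDAVP than in vehicle, and 7.43% in either direction. In withdrawal against dDAVP 1.64% were called lower, and 19% in either direction. After loess 2 genes of the list had an unadjusted p under 0.05 in each comparison, against 3.29% and 6.65% of all genes. Nr1h2 encodes LXR-beta, one of the receptors under which Mylip is transcribed. Its log2 intensities were 9.41 and 9.46 in withdrawal, 9.92 and 9.74 in dDAVP, and 9.56 and 9.46 in vehicle. Both dDAVP arrays lay above the other 4, whereas for Mylip one vehicle array (8.98) lay above a dDAVP array (8.90). Nr1h2 differed by -0.39 ± 0.10 for withdrawal against dDAVP (limma unadjusted p = 0.00854, adjusted 0.26) and by 0.32 ± 0.10 for dDAVP against vehicle (0.0208, adjusted 0.549), and by -0.43 and 0.36 after loess. The related receptor Nr1h3 differed by 0.02 and -0.20 in these comparisons and by -0.18 in withdrawal against vehicle. The retinoid receptors Rxra (-0.16 in dDAVP against vehicle, 0.00 after loess) and Rxrb (-0.15 in withdrawal against dDAVP, -0.25 after loess) and the cholesterol exporter Abcg1 (0.28 in withdrawal against vehicle) completed the genes with the smallest p. The very low density lipoprotein receptor Vldlr, a target of Mylip, differed by 0.17 ± 0.21 for withdrawal against dDAVP, with an interval from -0.34 to 0.68.

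**Figure D5:**
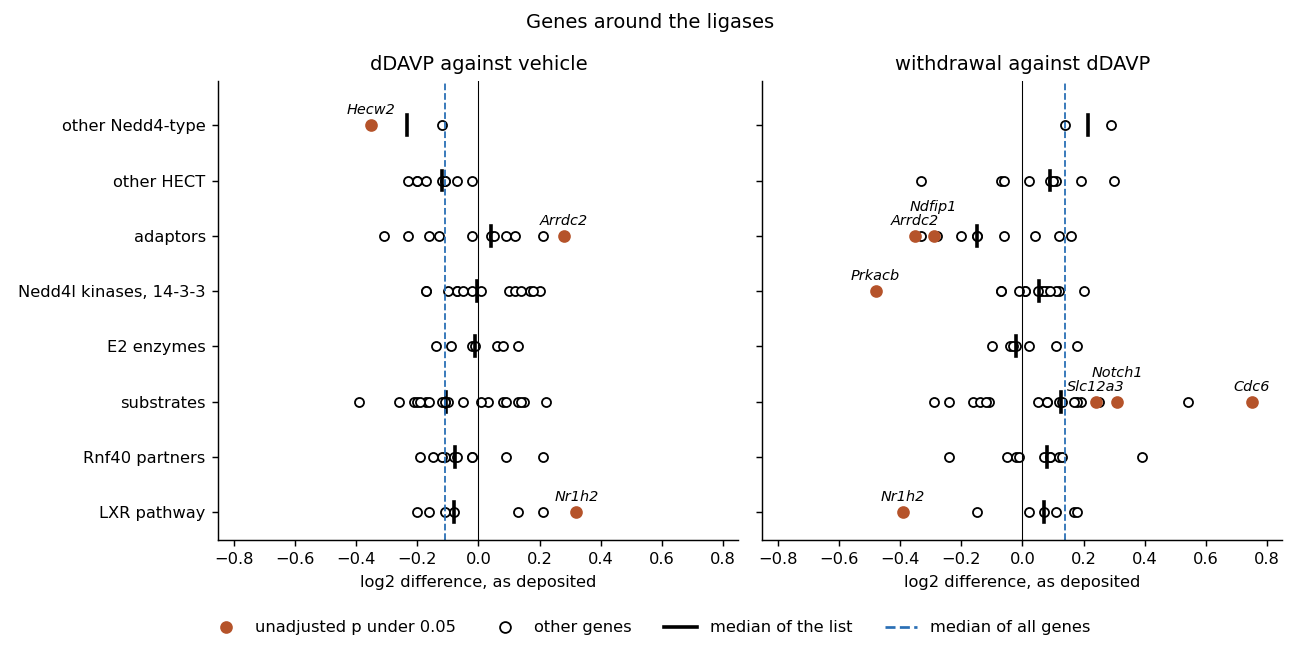
Log2 difference, as deposited, of each measured gene in the 8 lists around the ligases, for dDAVP against vehicle and withdrawal against dDAVP; filled points had an unadjusted limma p under 0.05, thick bars are list medians and the dashed line is the median of all genes. Arrdc2 and Nr1h2 are filled in both panels with opposite signs, and both panels use the same dDAVP arrays.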

How the data were processed

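Total RNA from 6 inner medulla samples was extracted with Trizol and labelled by the whole-transcript sense target assay, per the labels' protocols. Per the submitters' processing notes, RMA was used, and the authors deposited an intensity for every probe set and array, on a linear scale (30.2 to 10778.7). Neither the RMA version nor the build is given in the sources used here. RMA evens out the distributions of arrays, which would reduce a change common to most genes. The medians of the deposited arrays nevertheless still ran from 156.1 to 182.1. The log2 of each deposited value was taken. Of 28524 probe sets 14947 carried 1 gene symbol, 318 several and 13259 were not listed; Entrez numbers of 14916 were found in the RefSeq table (GRCr8), used for names and promoters, and 0 symbols changed. The planned tests assumed log2 values. No filter was applied.

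A group-means model over the 6 arrays and 14168 genes was fitted with limma 3.58.1 in R 4.3.3 (3 residual and 3.21 prior degrees of freedom), two-sided. P-values were adjusted by the Benjamini-Hochberg method over all genes in each of 3 comparisons and an F-test. The test was tested on simulated data, with no outcome reported here.

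The ligases and gene lists were chosen with earlier results of these data known, and so was the choice to leave out the arrays that stand apart. Named were all ligases, the 2 genes with the smallest p of each list and comparison, and the genes most like a ligase. Other list genes in the text were chosen after their values were seen. Alternatives were cyclic loess, subtracted array medians, a filter on dim genes, averaged probe sets, a replicate block and arrays left out.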

Additional observations from a re-analysis of the deposited data

How the results depend on the processing

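None of the 9 ligases passed an adjusted p of 0.05 in any comparison under any alternative run. The count at an unadjusted p under 0.05, which was 1 in each comparison and in the F-test, was 0 after loess, without the dimmest bin of genes (which removes Rnf40), with the replicate block and without both arrays that stand apart when dDAVP was set against vehicle. With array medians subtracted it was 1, but Mylip (0.32) in place of Rnf40. For withdrawal against dDAVP it was 2 after loess, 4 with array medians subtracted (Nedd4, Itch, Wwp1 and Mylip, all lower in withdrawal), 0 without the dimmest bin and 2 without both arrays that stand apart. Nedd4, Itch, Wwp1 and Mylip fell in the 2 brighter bins, where the median gene differed by 0.05 and 0.01 as deposited in this comparison. In the dimmer bins it differed by 0.21 and 0.20. Subtracting array medians takes 1 value off dim and bright genes alike, so in each comparison every ligase moved by the same amount. For withdrawal against dDAVP it took Nedd4 from -0.13 to -0.31, Itch from -0.22 to -0.40 and Mylip from -0.30 to -0.48. Smurf2 went from 0.33 to 0.15. Whether that amount suits genes of their brightness was not tested. For withdrawal against vehicle the count was 2 with array medians subtracted, 2 with probe sets averaged and 0 with the replicate block. In the F-test it was 3, 0 and 0 with array medians subtracted, without the dimmest bin and with the replicate block. With single arrays left out the counts ran from 0 to 2, from 1 to 2, from 0 to 1 and from 0 to 1 in that order; the first was 2 without dDAVP replicate 2 and 0 without any other array, the second 2 without either vehicle array, the third 0 without vehicle replicate 2 or either withdrawal array, and the fourth 0 without dDAVP replicate 1 or either withdrawal array. Where no value above shows a cause, the cause was not tested. Shares of all genes are given in this report for the deposited and loess values only. Apart from the pairings below, counts over all genes are not given for the other settings. Their ligase counts therefore cannot be set against all genes and are no result about the ligases.

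Signs turned in 7 of the 9 ligases, not in Rnf40 or Mylip. For dDAVP against vehicle, subtracted medians gave 0.12 for Itch, 0.06 for Nedd4, 0.14 for Nedd4l, 0.01 for Smurf2, 0.11 for Wwp1 and 0.10 for Wwp2, loess gave 0.01 for Itch, 0.03 for Nedd4l and 0.03 for Wwp2, and averaged probe sets gave 0.08 for Smurf2. For withdrawal against dDAVP, loess gave -0.01 for Smurf1, averaged probe sets -0.05 for Smurf2, and leaving out both arrays that stand apart 0.17 for Nedd4l and 0.18 for Wwp2. For withdrawal against vehicle that last setting gave 0.04 for Smurf1. With single arrays left out the ranges that crossed 0 were, for dDAVP against vehicle, -0.08 to 0.01 for Itch, -0.19 to 0.17 for Nedd4l, -0.10 to 0.02 for Wwp1 and -0.26 to 0.16 for Wwp2. For withdrawal against dDAVP they were -0.19 to 0.17 for Nedd4l and -0.23 to 0.18 for Wwp2, and for withdrawal against vehicle -0.15 to 0.12 for Nedd4l and -0.14 to 0.04 for Smurf1. An array left out leaves a group of 1, assumed to vary like the others.

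Same-numbered arrays did not deviate together (correlations of -0.62 between dDAVP and vehicle, -0.11 between withdrawal and dDAVP, and 0.00 between withdrawal and vehicle), so the block has no basis in the data; it left 490 of all genes at an unadjusted p under 0.05 for dDAVP against vehicle, against 1052 without it. The crossed pairing, fitted to the 4 dDAVP and vehicle arrays alone, joins arrays of different number and was added after seeing the data. It gave 3001 of 14168 genes at an unadjusted p under 0.05, 2 of them ligases. At an adjusted p under 0.05 it gave 43 genes, none of them a ligase. Same-numbered dDAVP and vehicle arrays deviated in opposite directions (-0.62), so arrays of different number deviated together. Pairing those takes the spread they share out of the error. The higher counts therefore cannot be separated from the choice of pairing and are no result about dDAVP or the ligases.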
